A study of Mus musculus with 18 samples.

Results

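Imprinted genes are genes read from 1 parental chromosome. They were followed here on both alleles of B cells from mice born of a cross between the inbred strains 129S1 and Cast. The genes were chosen by name from the known imprinted genes of the mouse, with earlier results of these data known. They were 10 in all: Impact, Zrsr1, Peg13, Kcnq1ot1, Mcts2, Igf2r, Trappc9, Commd1, H13 and Inpp5f. Of these, 9 were found by name among the 28374 genes matched between the tables of the 129 and the Cast allele, and Commd1 was not analysed here. CD23+ B cells, mature B cells that carry the receptor CD23, came from the spleen of female mice, and both groups had the same genotype, F1 129S1/Cast with 1 Xist allele disrupted (Xist+/-), in which the Cast X chromosome is the inactive one. There were 3 naive samples without treatment and 3 stimulated samples kept in vitro for 24 h with CpG at 1 µM, a synthetic DNA ligand of a Toll-like receptor that makes B cells divide. The age of the mice, their number and which strain was the mother are not in the labels. The labels do not say that samples of a group came from separate animals, so p-values measure the spread between these samples, which may be technical. The series lists 18 samples, and 12 from other groups are not analysed here.

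Genomic imprinting marks a gene in the egg or the sperm, mostly by DNA methylation at a control region, and the mark is kept in the cells of the offspring so that the gene is read from 1 parental copy. Several control regions are also promoters of noncoding RNAs or retrogenes that lie inside an intron of another gene. The unmethylated copy, often the paternal one, makes the inner transcript, and its host can then be silenced or cut short on the same chromosome. Impact, Zrsr1, Peg13, Kcnq1ot1 and Mcts2 are known as genes read from the paternal copy and Igf2r as one read from the maternal copy. Trappc9, Commd1, H13 and Inpp5f are hosts or neighbours whose imprint is known to depend on tissue or transcript form.

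Promoter windows of 4 genes are shown because their genes either gave reads almost wholly from 1 allele or, for Mcts2, differed in allele between replicate numbers. They are reference sequences from RefSeq, assembly GRCm38.p6, from 250 bases before to 50 bases after the transcription start, read 5′ to 3′ on the gene's strand, and carry no strain variants. Capitals mark each CG dinucleotide, the letters that DNA methylation acts on. Windows were found for 6 genes. Peg13 and Trappc9 had none, and the windows of Impact and Commd1 were not looked up.
Kcnq1ot1 (chr7:143296498-143296797, minus strand): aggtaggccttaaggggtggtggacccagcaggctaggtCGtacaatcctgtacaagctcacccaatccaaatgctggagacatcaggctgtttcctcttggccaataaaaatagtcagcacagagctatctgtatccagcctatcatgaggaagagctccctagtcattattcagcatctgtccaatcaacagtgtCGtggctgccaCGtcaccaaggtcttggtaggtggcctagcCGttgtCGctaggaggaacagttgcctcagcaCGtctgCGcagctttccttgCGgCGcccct
Zrsr1 (chr11:22971755-22972054, plus strand): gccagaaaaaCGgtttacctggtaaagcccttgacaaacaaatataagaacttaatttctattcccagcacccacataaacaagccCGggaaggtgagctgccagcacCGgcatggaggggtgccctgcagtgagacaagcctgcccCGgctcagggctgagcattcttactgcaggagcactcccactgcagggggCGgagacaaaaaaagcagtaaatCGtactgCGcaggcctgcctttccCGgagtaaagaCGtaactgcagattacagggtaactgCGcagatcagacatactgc
Igf2r (chr17:12769657-12769956, minus strand): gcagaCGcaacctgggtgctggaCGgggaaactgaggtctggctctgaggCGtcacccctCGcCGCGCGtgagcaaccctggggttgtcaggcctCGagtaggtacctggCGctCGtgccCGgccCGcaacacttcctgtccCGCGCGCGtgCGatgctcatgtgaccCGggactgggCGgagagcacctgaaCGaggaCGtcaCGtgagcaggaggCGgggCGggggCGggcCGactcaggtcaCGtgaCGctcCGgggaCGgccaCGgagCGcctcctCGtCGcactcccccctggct
Mcts2 (chr2:152686898-152687197, plus strand): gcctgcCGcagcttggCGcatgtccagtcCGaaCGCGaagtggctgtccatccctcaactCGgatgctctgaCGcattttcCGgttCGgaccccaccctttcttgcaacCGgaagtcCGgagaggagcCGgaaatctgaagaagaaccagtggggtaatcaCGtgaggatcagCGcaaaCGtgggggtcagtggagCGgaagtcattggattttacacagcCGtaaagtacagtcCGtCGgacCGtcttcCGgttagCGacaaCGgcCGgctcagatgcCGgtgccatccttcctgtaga

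The Igf2r window held 34 CG dinucleotides, a number reached by 7.73% of the 32851 promoter windows of this length. Mcts2 had 25 (reached by 18.4%), H13 had 21 (24.8%) and Inpp5f had 15 (34.6%). The windows of Zrsr1 with 10 (43.5%) and Kcnq1ot1 with 9 (45.8%) were nearer to the median window, which held 7. TGCCGC, the motif that the zinc finger protein ZFP57 is known to bind at imprinting control regions, was searched on both strands and contains 1 of the CG dinucleotides counted. Mcts2 had 1 match and the other 5 windows had 0, where 11.6% of all windows had a match. A match is a description of the letters and not a site.

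Between 4452339 and 6249989 reads per sample were counted over both alleles, and of the autosomal reads of matched genes 52.0% to 53.6% came from Cast. Of 8 B cell markers 7 were matched and all 7 had reads in both groups, with a summed level of 8119 to 10047 CPM (reads of both alleles per 1000000 reads of matched genes) in naive and 2829 to 3431 CPM in stimulated samples. Macrophage markers (15 of 16 matched) summed to 3888 to 8051 CPM in naive and 27.7 to 40.6 CPM in stimulated samples, all 15 were lower in every stimulated sample, and Fcna was at 0 there. Markers of T and NK cells (7 of 8 matched) summed to 33.9 to 54.8 CPM in naive and 0.194 to 0.410 CPM in stimulated samples, with Cd2, Cd3g and Nkg7 at 0. Erythroid markers (3 of 6 matched) summed to 37.1 to 75.8 CPM in naive and 0.582 to 1.37 CPM in stimulated samples with 0 of the 3 at 0, and neutrophil markers (4 of 6 matched) to 4.64 to 21.2 CPM and 0.410 to 0.786 CPM with Camp at 0 in the latter. The share of all genes that were lower in every stimulated sample was not counted. In bulk RNA, fewer cells of a type and less RNA per cell cannot be told apart.

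The first comparison asked from which allele each imprinted gene was read. Kcnq1ot1, Peg13, Zrsr1 and Impact were read from the Cast allele and Igf2r from the 129 allele, in naive and in stimulated cells. The other 4 genes, Mcts2, H13, Inpp5f and Trappc9, gave reads from both alleles. In edgeR's quasi-likelihood test of Cast against 129 reads within a sample, 5 of 9 genes differed in naive cells, 4 toward Cast and 1 toward 129, where 26.6% of all 10364 tested genes were called, 14.7% toward Cast and 11.9% toward 129. In stimulated cells the same 5 were called in the same directions, against 26.7% of all genes, 14.8% toward Cast and 11.9% toward 129. The median log2 ratio of Cast to 129 reads over the 9 genes was 0.90 in naive and 0.68 in stimulated cells, and over all genes tested 0.11 and 0.10.

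Kcnq1ot1 is a long noncoding RNA transcribed antisense inside Kcnq1 on chromosome 7, known to silence neighbouring genes on the chromosome that makes it. From the Cast allele it had 2378, 3110 and 2270 reads in naive replicates 1, 2 and 3 and 3766, 2213 and 3061 in stimulated replicates 1, 2 and 3. From the 129 allele it had 34, 67 and 72 reads in naive and 71, 57 and 69 in stimulated samples. The 129 share was thus low in all 6 samples, between 1.41% in naive replicate 1 (95% Wilson interval 1.01 to 1.96) and 3.07% in naive replicate 3 (2.45 to 3.85), and these intervals did not overlap. Its Cast share averaged 97.8% ± 0.836 over the naive and 97.8% ± 0.331 over the stimulated samples (SD, n = 3), and the log2 ratio of Cast to 129 was 5.53 (SE 0.25, edgeR adjusted p = 3.40e-05) and 5.49 (SE 0.24, edgeR adjusted p = 3.01e-05). With 2270 to 3837 reads per sample it had the deepest allelic measurement of the 9 genes. In the GENCODE annotation of GRCm38, 121 of its 93092 exon bases overlap Kcnq1 exons.

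Peg13, a long noncoding RNA from an intron of Trappc9 on chromosome 15, shared no exon base with its host. Sharing of reads between Peg13 and unspliced RNA of its host was not tested. Cast reads of Peg13 numbered 358, 446 and 325 in naive and 60, 46 and 51 in stimulated samples. From the 129 allele there were 9, 21 and 11 reads in naive samples and 10, 0 and 0 in stimulated samples. The silent-allele reads of the stimulated group thus came from replicate 1 alone, where the Cast share was 85.7% (95% Wilson interval 75.7 to 92.1). In stimulated replicates 2 and 3, 0 of 46 and 0 of 51 reads allow a 129 share of up to 6.52% and 5.88%, counting error only. Mean Cast shares were 96.6% ± 1.03 (naive) and 95.2% ± 8.25 (stimulated; SD, n = 3), and the imbalance passed in both (edgeR adjusted p = 0.00324 and 0.0144).

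Zrsr1 encodes a splicing factor related to the small U2AF subunit and is a retrogene, a copy made through RNA of the X-linked gene Zrsr2. It lies on chromosome 11 inside Commd1 on the opposite strand, and 412 of its 4492 exon bases overlap Commd1 exons. Cast reads were 48, 50 and 28 in naive and 25, 8 and 12 in stimulated samples, against 129 reads of 1, 4 and 1 in naive samples and 0 in each stimulated sample. All samples thus lay at the Cast end, on few reads. The Cast share in naive cells was 95.7% ± 2.78 (SD, n = 3; log2 ratio 4.36, SE 0.54, edgeR adjusted p = 0.00329). In stimulated cells, 0 of 45 reads over the group allow a 129 share of up to 6.67%, so Cast reads were at least 15-fold more abundant against a floor of 3 reads over the group (edgeR adjusted p = 0.00477). Its parent gene Zrsr2 was read the other way, with 281 to 481 reads per sample from 129 and 2 to 13 from Cast. Zrsr2 is X-linked, and the Cast X chromosome is the inactive one in these mice.

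Impact, whose protein restrains the amino acid sensor kinase GCN2, lies on chromosome 18. It had 181, 192 and 148 Cast reads in naive and 253, 158 and 274 in stimulated samples, with 15, 17 and 12 and then 21, 20 and 27 reads from 129. Its 129 share was the highest among the 4 genes read from Cast in naive cells, at 7.76%, and 9.29% in stimulated cells. The mean Cast share, 92.2% ± 0.331 before and 90.7% ± 1.81 after CpG (SD, n = 3), went with log2 ratios of 3.56 (SE 0.17) and 3.30 (SE 0.17, edgeR adjusted p = 1.04e-05 in each group). The 10 nearest genes with 30 or more reads per sample, 5 on each side and none of them on the imprinted lists, also leaned to Cast. Their median Cast share was 70.7% to 79.9% over the 6 samples, and 5 or 6 of the 10 lay above 70%. Their part in the share of Impact was not tested.

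Igf2r, the receptor that sorts mannose 6-phosphate tagged enzymes to lysosomes and clears IGF2, stood at the other end. On chromosome 17 it had 92, 94 and 80 reads from 129 in naive and 119, 172 and 130 in stimulated samples. Cast reads were 3, 2 and 5 in naive and 4, 16 and 5 in stimulated samples, so stimulated replicate 2 held the most. Its Cast share averaged 3.71% ± 1.96 over the naive and 5.16% ± 2.91 over the stimulated samples (SD, n = 3), and in stimulated replicate 2 it was 8.51% (95% Wilson interval 5.31 to 13.4). The log2 ratio was -4.69 (SE 0.40, edgeR adjusted p = 1.48e-04) in naive and -4.16 (SE 0.36, edgeR adjusted p = 1.31e-04) in stimulated cells. The median Cast share of its 10 neighbours was 47.5% to 56.3%.

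**Figure D1:**
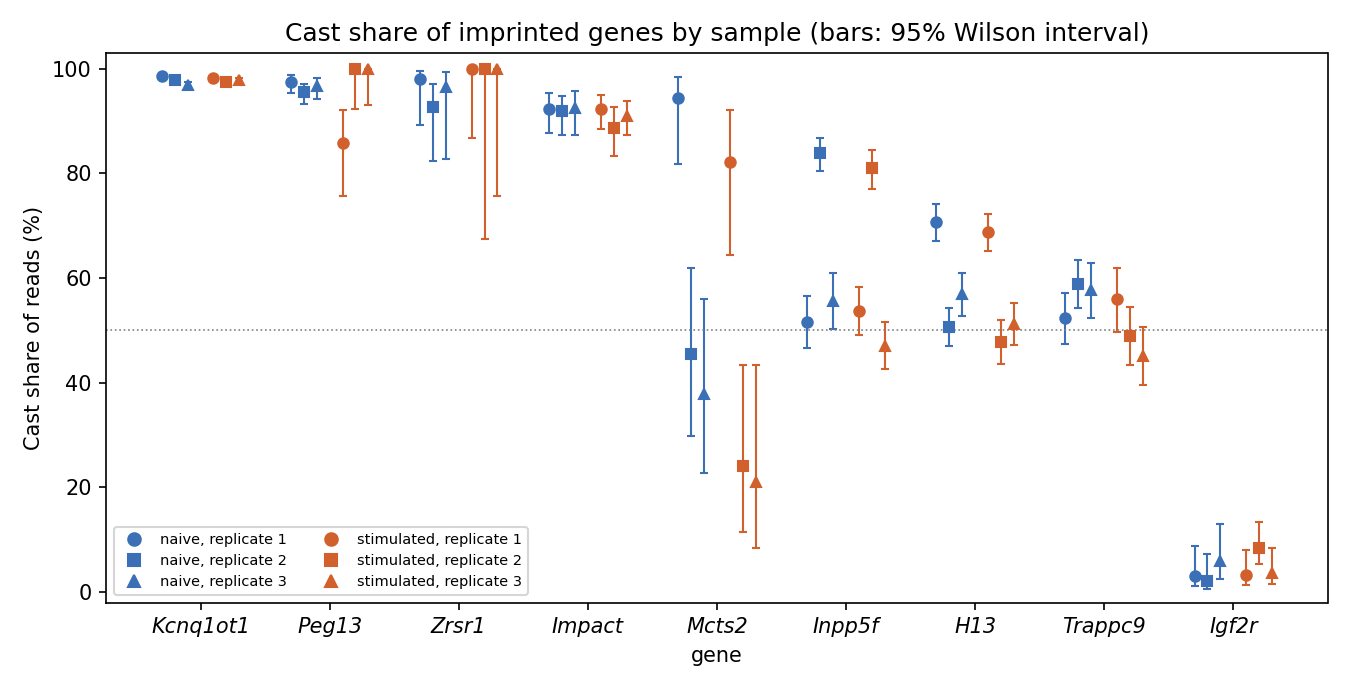
Share of reads from the Cast allele (%, y axis) for each of 9 imprinted genes (x axis), 1 point per sample with its 95% Wilson interval, blue for naive and orange for stimulated, the symbol giving the replicate number. Kcnq1ot1, Peg13, Zrsr1 and Impact sit above 85% in all 6 samples and Igf2r below 9%, while Mcts2, Inpp5f and H13 separate by replicate number.

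Mcts2, Inpp5f and H13 were read from both alleles, and each had replicate numbers that stood apart in the same way in naive and stimulated samples. Mcts2 is a retrogene of the X-linked translation factor gene Mcts1 and lies in an intron of H13, the gene of signal peptide peptidase, on the same strand with 0 shared exon bases. In replicate 1, Mcts2 had 34 Cast and 2 129 reads in naive and 23 Cast and 5 129 reads in stimulated cells. In replicates 2 and 3 it had 15 and 11 Cast reads against 18 and 18 from 129 in naive, and 6 and 4 against 19 and 15 in stimulated cells. The Cast share was 94.4% (95% Wilson interval 81.9 to 98.5) and 82.1% (64.4 to 92.1) in replicate 1, and its highest value in the others was 45.5% (29.8 to 62.0), so the intervals did not overlap. Over the groups it was 59.3% ± 30.7 and 42.4% ± 34.5 (SD, n = 3), and the imbalance did not pass (edgeR adjusted p = 0.702 and 0.834). Mcts1, the parent gene, was not matched between the tables, so the sharing of reads between the 2 copies was not tested. Sharing of reads between Mcts2 and unspliced RNA of its host H13 was not tested either.

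H13 had the same replicate apart. It had 442, 359 and 318 Cast reads and 183, 350 and 240 129 reads in naive samples, and 440, 249 and 296 against 199, 272 and 282 in stimulated samples. Its Cast share in replicate 1 was 70.7% (95% Wilson interval 67.0 to 74.2) in naive and 68.9% (65.2 to 72.3) in stimulated cells, above the 47.8% to 57.0% of the other 4 samples. The imbalance did not pass when replicates were taken as equal (log2 ratio 0.57, SE 0.33, edgeR adjusted p = 0.275 in naive cells, and log2 ratio 0.36, SE 0.33, edgeR adjusted p = 0.482 in stimulated cells). With the replicate block, a term for each replicate number, it did (edgeR adjusted p = 7.59e-07 and 0.00181), where 44.6% and 45.7% of all genes were called. The block takes differences in Cast share between replicate numbers out of the error. Its p-values for imbalance, here and below, thus do not measure the spread between replicate numbers. The 10 neighbours of H13 and Mcts2 had a median Cast share of 53.4%, 53.3% and 52.5% in naive and 54.0%, 47.5% and 49.7% in stimulated replicates 1, 2 and 3. In naive samples the neighbours of replicates 1 and 2 were nearly equal. In stimulated samples replicate 1 was the highest there too, by a smaller margin than for H13. The part of the neighbours' difference in that of the gene was not tested.

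Inpp5f, an inositol phosphatase gene on chromosome 7 with a known imprinted transcript in brain, stood apart in replicate 2. It had 204, 440 and 186 Cast reads against 191, 85 and 148 from 129 in naive samples, and 236, 351 and 222 against 203, 82 and 250 in stimulated samples. The Cast share in replicate 2 was 83.8% (95% Wilson interval 80.4 to 86.7) and 81.1% (77.1 to 84.5), and it was 47.0% to 55.7% in the other 4 samples. Its 10 neighbours moved with it, with a median Cast share of 78.9% and 80.6% in replicate 2 and 49.0% to 51.6% in the others, and 6 and 7 of the 10 lay above 70% in replicate 2 against 0 elsewhere. Whether the share of Inpp5f has the same source as that of its neighbours was not tested. Its imbalance did not pass (edgeR adjusted p = 0.390 and 0.515). With the replicate block, which leaves the difference of replicate 2 out of the error, it did (edgeR adjusted p = 4.57e-10 and 3.34e-07).

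Trappc9, a subunit of the TRAPPII vesicle tethering complex also known from NF-kB signalling, was read from both alleles while Peg13 inside it was read from Cast. It had 204, 258 and 194 Cast reads against 186, 180 and 142 from 129 in naive samples, and 137, 153 and 138 against 108, 160 and 168 in stimulated samples. The mean Cast share, 56.3% ± 3.52 before and 49.97% ± 5.49 after CpG (SD, n = 3), rested on groups that overlapped. Its imbalance did not pass (edgeR adjusted p = 0.116 and 0.996), though with the replicate block it did in naive cells (log2 ratio 0.36, SE 0.13, edgeR adjusted p = 0.0159).

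**Figure D2:**
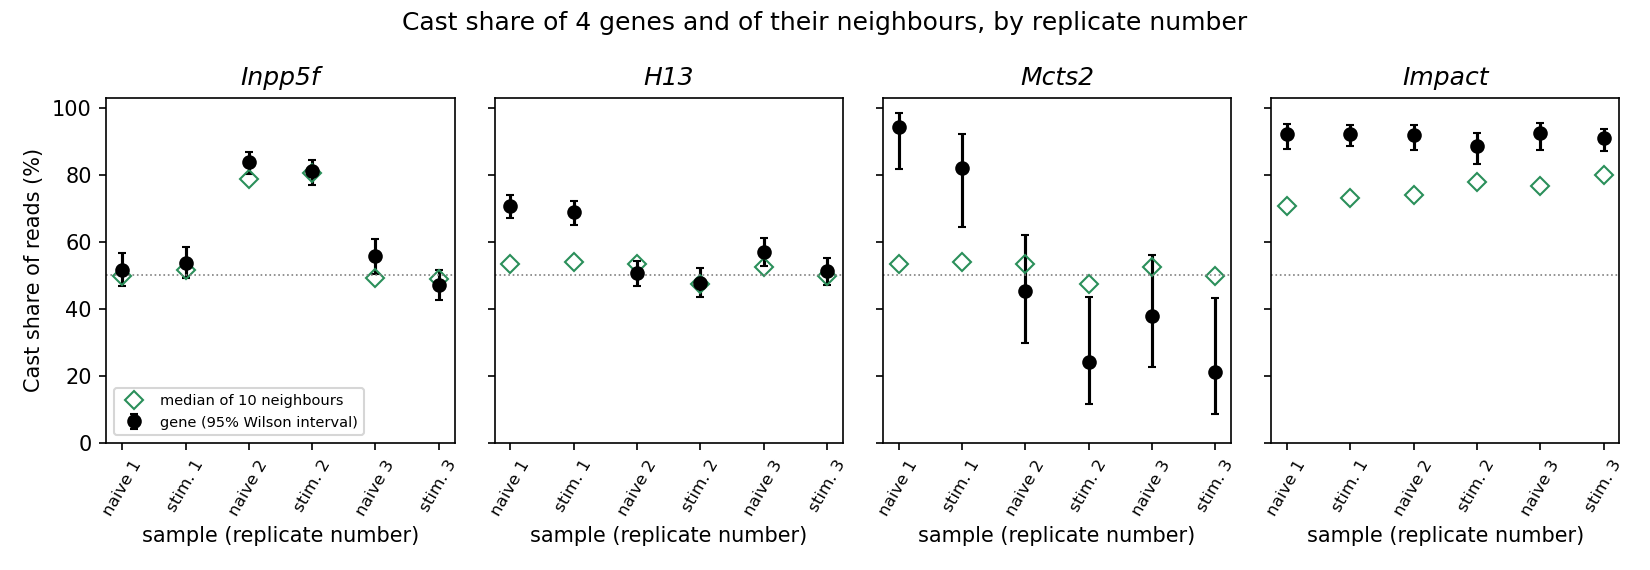
Cast share (%, y axis) of Inpp5f, H13, Mcts2 and Impact in each sample (x axis, naive and stimulated samples of a replicate number side by side), with black points and 95% Wilson intervals for the gene and green diamonds for the median of its 10 neighbours. The neighbours of Inpp5f are as high as the gene in replicate 2, those of H13 and Mcts2 stay between 47.5% and 54.0%, and those of Impact lie between 70.7% and 79.9%.

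Reads from nearly 1 allele were uncommon over the autosomes. Of 8562 autosomal genes with 10 or more reads in each sample, 1.05% had at least 90% Cast reads in all 6 samples and 0.584% at least 90% 129 reads. Of the 8 imprinted genes with that depth, Kcnq1ot1 was in the first set and Igf2r in the second, and at 80% Peg13 and Impact joined Kcnq1ot1 (2.28% of all genes, with 1.18% on the 129 side). Zrsr1 had 8 reads in 1 sample and was outside this count. Genes outside the imprinted lists could look alike. With at least 30 reads per sample, 37 genes had at least 95% Cast reads in all 6 samples, among which Actb, Tpt1 and Lrmp had most reads, and 18 had at most 5%, among which Cd24a, Iglc1 and Ranbp1 had most. Actb and Tpt1 are known to have many near-identical copies in the genome, and how such reads were counted is not given in the sources used here.

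**Figure D3:**
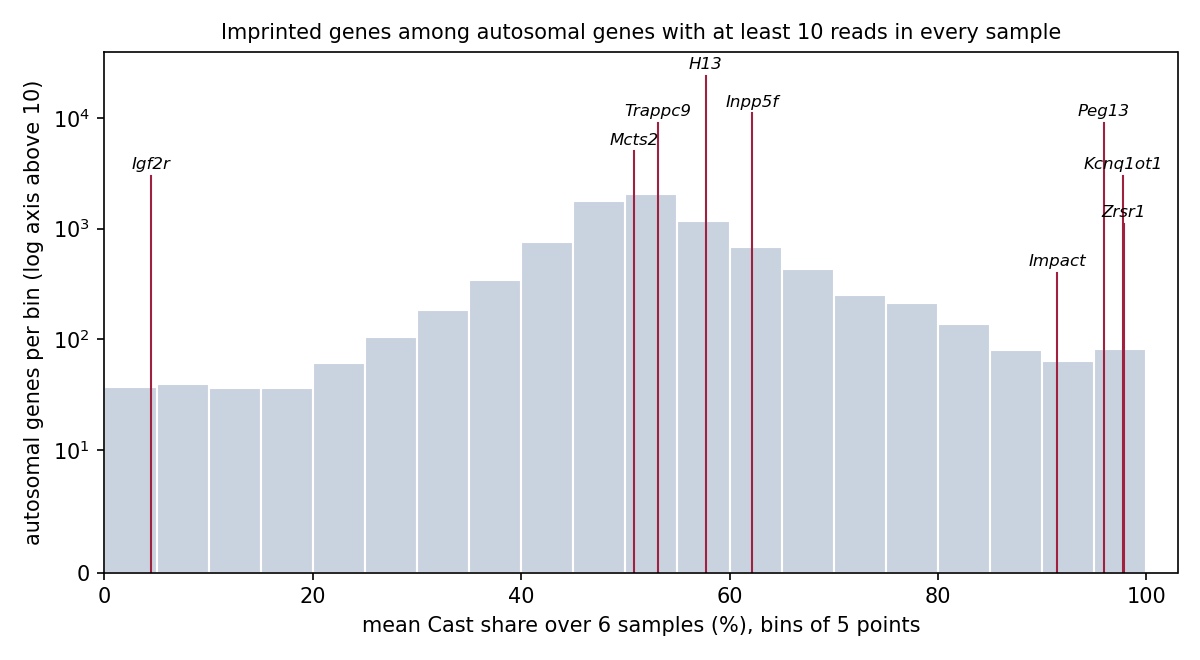
Number of autosomal genes (y axis, log scale above 10) by mean Cast share over the 6 samples (x axis, %, bins of 5 points) for 8562 genes with 10 or more reads in each sample, with red lines at the means of the 9 imprinted genes, of which Zrsr1 has 8 reads in 1 sample. Mcts2, Trappc9, H13 and Inpp5f lie nearer the middle of the distribution, and the other 5 in its ends. Inpp5f lies above the upper quartile, 58.8%, and the mean of Mcts2 covers samples from 21.1% to 94.4%.

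The second comparison asked whether the level of these genes changed with CpG. Over both alleles, 5 of 9 genes passed edgeR's quasi-likelihood test and all 5 fell: Peg13, Zrsr1, Trappc9, H13 and Mcts2. Of all 10343 genes tested, 68.7% were called, 34.2% higher and 34.4% lower, so the share of the 9 genes called was below that of all genes. The median log2 change was -0.42 over the 9 genes and -0.01 over all genes tested. Kcnq1ot1, Impact, Igf2r and Inpp5f did not pass.

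Peg13 had 87.0, 108 and 92.6 CPM in naive replicates 1, 2 and 3 and 14.4, 8.92 and 10.01 CPM in stimulated replicates. The groups were far apart, and the mean fell from 96.0 ± 11.1 to 11.1 ± 2.88 CPM (SD, n = 3; log2 change -3.10, SE 0.18, edgeR adjusted p = 7.56e-07). On the Cast allele alone it fell by 3.17 (SE 0.17, edgeR adjusted p = 9.47e-07). The macrophage markers given above were also lower in every stimulated sample (15 of 15), as were all 7 B cell markers. So were 5 of 7 T and NK cell, 3 of 3 erythroid and 2 of 4 neutrophil markers. Of all genes tested, 34.4% were called lower, and the share lower in every stimulated sample was not counted. The part of these cell types in the changes of level was not tested. Its host Trappc9 had 92.5, 102 and 92.6 CPM in naive and 50.3, 60.7 and 60.1 CPM in stimulated samples. The groups did not overlap, and its mean fell from 95.6 ± 5.28 to 57.0 ± 5.87 CPM (SD, n = 3; log2 change -0.73, SE 0.12, edgeR adjusted p = 3.81e-04).

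Zrsr1 had 11.6, 12.5 and 7.99 CPM in naive and 5.13, 1.55 and 2.36 CPM in stimulated samples. The groups did not overlap, and it fell by 1.82 on the log2 scale (SE 0.43, edgeR adjusted p = 0.00386). Its parent gene Zrsr2 had 80.2 ± 6.29 CPM in naive and 85.6 ± 15.05 CPM in stimulated cells (SD, n = 3).

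H13 had 148, 165 and 154 CPM in naive and 131, 101 and 113 CPM in stimulated samples, and fell by 0.42 (log2, SE 0.11, edgeR adjusted p = 0.00777) with no overlap. In the reads of 1 allele at a time its fall did not pass (edgeR adjusted p = 0.221 on 129 and 0.0716 on Cast). Mcts2 inside it had 8.54, 7.66 and 7.99 CPM in naive and 5.74, 4.85 and 3.73 CPM in stimulated samples. Every stimulated sample was lower than any naive one, yet with 19 to 36 reads per sample the fall of 0.74 (log2, SE 0.29) passed narrowly (edgeR adjusted p = 0.0473). It did not pass with the replicate block (edgeR adjusted p = 0.0582, where 70.3% of all genes passed), in DESeq2 (adjusted p = 0.0786) or when any 1 of the 6 samples was left out (edgeR adjusted p = 0.0539 to 0.156).

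Kcnq1ot1 varied among stimulated samples more than between groups, at 572, 738 and 645 CPM in naive and 787, 440 and 615 CPM in stimulated samples (log2 change -0.08, SE 0.19, edgeR adjusted p = 0.741). Impact was at 46.5, 48.5 and 44.1 CPM in naive and 56.2, 34.5 and 59.1 CPM in stimulated samples (log2 change 0.12, SE 0.19, edgeR adjusted p = 0.600). Both were lowest in stimulated replicate 2, and their groups overlapped. Igf2r had 22.5, 22.3 and 23.4 CPM in naive and 25.2, 36.5 and 26.5 CPM in stimulated samples, a log2 difference of 0.39 (SE 0.19, edgeR adjusted p = 0.0958) that did not pass although the groups did not overlap. Inpp5f, at 93.7, 122 and 92.0 CPM in naive and 90.1, 84.0 and 92.7 CPM in stimulated samples, did not pass either (log2 change -0.19, SE 0.13, edgeR adjusted p = 0.198).

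**Figure D4:**
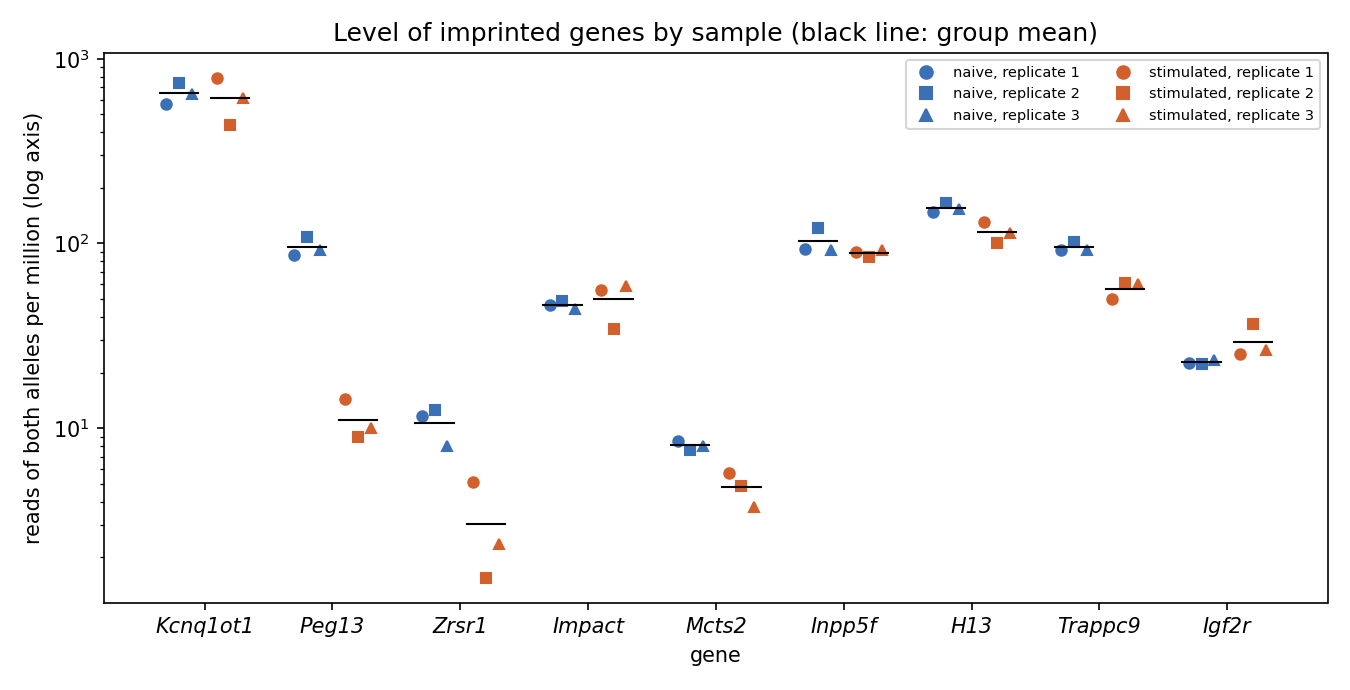
Level of 9 imprinted genes (x axis) in CPM, reads of both alleles (y axis, log scale), 1 point per sample, blue for naive and orange for stimulated, the symbol giving the replicate number and the black line the group mean. Peg13 drops from 96.0 to 11.1, while Kcnq1ot1 and Impact overlap between the groups. Levels are not divided by gene length, so genes are not to be compared with each other.

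The third comparison asked whether the ratio of Cast to 129 reads differed between the groups. For the genes read from 1 allele, it asked whether the silent allele gained reads with CpG. Mcts2, H13, Inpp5f and Trappc9 gave reads from both alleles, so for them the ratio alone was compared. None of the 9 genes passed (0 of 9 at an adjusted p of 0.05), where 0.917% of 10364 genes did in edgeR, 0.482% toward Cast and 0.434% toward 129. At an unadjusted p under 0.05 it was 0 of 9, against 1179 of the 10364 genes. In DESeq2, 0 of 9 passed, against 141 of all genes. With the replicate block 0 of 9 passed as well, against 7.52% of all genes. There 1 of the 9, Trappc9, had an unadjusted p under 0.05 (log2 change -0.38, SE 0.19, edgeR adjusted p = 0.289), against 1781 of the 10364 genes. Without the block, the estimate was tightest for Impact, -0.26 (log2, SE 0.23, edgeR adjusted p = 0.882), and Kcnq1ot1, -0.03 (SE 0.30, edgeR adjusted p = 1.00), among the genes read from 1 allele. With the block it was tightest for Kcnq1ot1 (log2 change -0.02, SE 0.16), with SE 0.34 for Impact. The values that follow are without the block. For Igf2r the change was 0.53 (SE 0.57, edgeR adjusted p = 0.866). For Peg13 it was -0.71 (SE 1.25, edgeR adjusted p = 0.966), and without stimulated replicate 1, which held all 129 reads of its group, its sign turned (edgeR adjusted p = 0.292). The size of that value depends on the prior count, since the remaining stimulated samples held 0 reads from 129. Zrsr1 had no 129 read in the stimulated group, so no change of ratio is given (edgeR adjusted p = 0.555). At the depth of Zrsr1, Mcts2 and Igf2r, small changes of the ratio were not detectable.

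The wider list of imprinted genes had 68 further members, 59 of them matched, and most were barely read in these cells: 20 had no read in any sample and 13 had 10 or more reads in each sample. Among the 13, 2 rose and 5 fell with CpG in edgeR's test, with a median log2 change of -0.48, where 68.7% of all genes were called. The minimum of 10 reads in each sample drops genes that are low in 1 group: 3 more were tested, and with them 4 of 16 rose and 6 fell, with a median of -0.25. These 3, named after their values were seen, were Atp10a with 4 to 13 reads in naive and 121 to 167 in stimulated samples, Sfmbt2 with 3 to 7 and at least 78, and Ppp1r9a with 50 to 85 and 0. Those of the 13 that lie in the imprinted domain of Kcnq1ot1 or of Trappc9 were named here, a choice made after values were seen, as for Ube3a and Gnas below. The tetraspanin gene Cd81 fell from 179 ± 14.96 to 60.5 ± 2.90 CPM (SD, n = 3; log2 change -1.55, SE 0.11, edgeR adjusted p = 2.18e-06). Osbpl5, a lipid transfer protein gene, fell from 62.4 ± 16.5 to 16.5 ± 2.43 CPM (log2 change -1.90, SE 0.21, edgeR adjusted p = 3.63e-05). Tssc4 rose by 1.01 (SE 0.15, edgeR adjusted p = 2.08e-04; 0.0527 in the Cast reads alone) and the histone chaperone gene Nap1l4 rose by 0.88 (SE 0.14, edgeR adjusted p = 3.01e-04). In the Trappc9 domain, the microRNA effector gene Ago2 fell by 0.48 (SE 0.10, edgeR adjusted p = 0.00190), while Chrac1, with log2 change -0.51 and SE 0.27, did not pass (edgeR adjusted p = 0.112).

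These neighbours of Kcnq1ot1, known as imprinted in placenta, were read from both alleles. In naive cells the Cast share was 50.7% ± 1.67 for Cd81, 49.1% ± 5.92 for Osbpl5, 48.7% ± 7.375 for Tssc4 and 51.4% ± 8.31 for Nap1l4 (SD, n = 3). In stimulated cells that of Osbpl5 was 32.3% ± 10.8 and that of Tssc4 37.7% ± 4.28 (SD, n = 3), both below equal reads (edgeR adjusted p = 0.0333 and 0.0238). For Osbpl5 this did not pass without naive replicate 3 (edgeR adjusted p = 0.0545), stimulated replicate 2 (0.0798) or stimulated replicate 3 (0.106). For Tssc4 it did not pass without stimulated replicate 1 (edgeR adjusted p = 0.0620), 2 (0.0703) or 3 (0.133). Nap1l4 had 56.2% ± 1.20 (SD, n = 3) in stimulated cells, which passed with the replicate block alone (edgeR adjusted p = 0.207 without it and 0.0497 with it). The change of ratio of Osbpl5 and Tssc4 passed with the replicate block alone, at -0.96 (log2, SE 0.29, edgeR adjusted p = 0.0250) for Osbpl5 and -0.67 (log2, SE 0.22, edgeR adjusted p = 0.0468) for Tssc4. With the block 3 of the 16 tested passed, all toward 129, where 7.52% of all genes did. The third was Sfmbt2, at -3.61 (log2, SE 0.98, edgeR adjusted p = 0.00927, and 0.163 without the block). Its Cast share was 74.6% ± 22.5 in naive cells, on the few reads given above, and 17.7% ± 5.61 in stimulated cells (SD, n = 3). The stimulated imbalance of Sfmbt2 passed without the block (edgeR adjusted p = 0.00635). Ago2 had a Cast share of 50.7% ± 1.61 and 53.4% ± 1.99, and Chrac1 one of 39.2% ± 4.04 and 44.8% ± 8.80 (SD, n = 3). Outside these domains, imbalance in naive cells passed for 2 of the 13 genes, where 26.6% of all genes were called. Ube3a, a ubiquitin ligase gene known to be imprinted in neurons, had 67.1% ± 6.04 Cast reads before and 72.8% ± 0.910 after CpG (SD, n = 3; edgeR adjusted p = 0.00303 and 5.39e-04), beside a median of 50.1% to 62.3% for its neighbours. Gnas, whose locus makes overlapping transcripts of opposite parental origin, had 79.6% ± 7.14 and 70.2% ± 7.38 Cast reads (SD, n = 3; edgeR adjusted p = 0.00842 and 0.0874). It fell by 1.59 on the log2 scale (SE 0.38, edgeR adjusted p = 0.00461).

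Genes that write, keep or erase DNA methylation or the histone marks tied to imprints were listed as well. Of 22, 19 were tested, 10 rose and 5 fell with CpG, with a median log2 change of 0.25, where 68.7% of all genes were called, 34.2% higher and 34.4% lower. The counts hold members of opposite roles, named here after their values were seen: of the TET enzymes that oxidise methylated cytosine, Tet2 rose and Tet1 and Tet3 fell, and of the de novo methyltransferases, Dnmt3b rose and Dnmt3a fell. The 6 with the smallest p were Uhrf1, Hells, Ezh2, Dnmt1, Trim28 and Arid4b. Uhrf1, which brings the maintenance methyltransferase to newly copied DNA, rose from 21.2 ± 5.43 to 598 ± 34.4 CPM (SD, n = 3; log2 change 4.82, SE 0.17, edgeR adjusted p = 9.02e-08). The methyltransferase gene Dnmt1 itself rose from 276 ± 11.4 to 1221 ± 114 CPM (log2 change 2.16, SE 0.12, edgeR adjusted p = 4.70e-07). Hells, a chromatin remodeller, rose by 4.37, Ezh2, the Polycomb methyltransferase, by 3.12, and Trim28, the corepressor that ZFP57 recruits, by 1.51 on the log2 scale. Arid4b fell by 0.85 on the log2 scale. Zfp57, named after its values were seen, had no read in any sample.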

How the data were processed

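CD23+ splenic B cells of 129S1/Cast mice were measured by stranded total RNA sequencing, per the labels' protocols. The submitters' processing notes list STAR, featureCounts, Subread 2.0.0 and the build mm10, with no role given. The deposited tables hold raw read counts per gene, 1 for the 129S1/SvImJ and 1 for the CAST/EiJ annotation per sample, and end in htseq-count style summary rows, per the file contents. How a read was given to a strain, and whether strand was used, is not given in the sources used here, so antisense and nested genes may share reads. The row for no annotated gene held 44.5% to 67.1% of aligned reads and stayed out. Genes were matched by a name used once and by chromosome, which kept 81.5% to 84.9% of gene counts. Unnamed genes took 5.10% to 7.59% of 129 and 14.4% to 19.7% of Cast counts.

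CPM are reads per 1000000 reads of matched genes over both alleles. Level was tested on summed alleles (edgeR 4.0.16 in R 4.3.3, quasi-likelihood, robust, TMM, filterByExpr). Allelic ratios were tested with 12 columns, a term per sample, 1 library size for both alleles and at least 10 reads in 3 or more samples. Both were adjusted by Benjamini-Hochberg over all genes tested, with a threshold of 0.05, and were tested on simulated data. The standard error was derived from the F statistic. DESeq2 1.42.0, other filters, scalings, a replicate block and leaving out each sample were alternatives. Replicate numbers, taken from the titles, paired the naive and stimulated samples only in the replicate block, and the main fits did not use them. Same-numbered samples deviated together from their group means (r = 0.192, 0.156 and 0.197 over 7449 genes for level, and 0.672, 0.588 and 0.673 over 7264 genes for Cast share). Wilson intervals and floors of 3 reads cover counting error only. No 2 libraries agreed within sampling noise (at least 6.06 chi-square units per degree of freedom). Neighbours were ordered by RefSeq positions in GRCm38.p6, and the strain annotations may differ. All 10 genes of the rule are named. Of the wider list, genes with 10 or more reads in each sample could be named, of the maintenance list the 6 with the smallest p, and of genes with a like allelic pattern the 3 with most reads on each side. The members and lists were chosen with earlier results of these data known. The authors' deposited table of X-linked genes was not used here.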

Additional observations from a re-analysis of the deposited data

How the results depend on the processing

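Genes called over the whole table under the alternatives, against 7105 for level, numbered 6603 to 7067 when 1 sample was left out, 5159 in the 129 tables alone and 5795 in the Cast tables alone. For the ratio change, 95 genes became 14 to 26 when 1 sample was left out and 779 with the replicate block. For imbalance, 2756 in naive and 2771 in stimulated cells became 1836 to 2615 and 1932 to 2572 when 1 sample was left out, and 4622 and 4740 with the replicate block, which was added for imbalance after the data were seen. Genes with at least 80% of reads from 1 strain numbered 195 for Cast and 101 for 129, against 90 and 50 at 90%, and 93 to 100 and 50 to 54 when 1 sample was left out. The settings themselves use fewer samples, a looser threshold or another error term, and the cause was not tested further.

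Of the 9 imprinted genes, 5 passed for level, 4 when any 1 sample was left out (Mcts2 no longer passed), 1 in the 129 tables alone (Trappc9, with Peg13 and Zrsr1 too low there to be tested) and 3 in the Cast tables alone (Peg13, Zrsr1 and Trappc9). The replicate block raised those called for naive imbalance from 5 to 8, adding H13, Inpp5f and Trappc9. It changed no other call among the 9 genes than those given. The 5 genes read from 1 allele were called in both groups under each alternative run, except that Zrsr1 was too low to be tested at 30 reads.

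Signs turned where no call was made. For Peg13 the ratio change was 0.40 in DESeq2 and -1.31 to 3.60 when 1 sample was left out, the upper value being set by the prior count. With own library sizes the naive imbalance was -0.0743 for Cd81, -0.0339 for Nap1l4 and -0.0751 for Ago2. When 1 sample was left out, the ratio change ran from -0.32 to 0.24 for Kcnq1ot1, -2.40 to 0.0791 for Mcts2, -0.59 to 0.14 for H13, -0.88 to 0.46 for Inpp5f and -0.0598 to 1.00 for Igf2r. The level change ran from -0.29 to 0.0916 for Kcnq1ot1 and -0.0186 to 0.30 for Impact. The naive imbalance ran from -0.48 to 1.42 for Mcts2, -0.19 to 0.14 for Osbpl5, -0.0043 to 0.0921 for Cd81, -0.30 to 0.13 for Tssc4, -0.12 to 0.35 for Nap1l4 and -0.0096 to 0.0802 for Ago2, and the stimulated imbalance from -0.0284 to 0.61 for H13, -1.74 to 0.27 for Mcts2 and -0.17 to 0.14 for Trappc9. Zrsr1 had 8 to 54 and Mcts2 19 to 36 reads per sample, the fewest of the 9 genes.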
